A study of Mus musculus with 2 samples.

Results

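The genes described here are 36 genes of glycolysis and of the cellular response to low oxygen, out of 17790 genes in the deposited count table, in which all 36 were found by name. They were chosen by function: glucose transporters, the enzymes of glycolysis, enzymes and carriers of pyruvate and lactate, the oxygen sensing machinery, and genes known to be induced in hypoxia. Cells take up glucose through the GLUT transporters, split it in the cytosol to pyruvate, and either pass the pyruvate to mitochondria or reduce it to lactate, which leaves the cell through monocarboxylate transporters. When oxygen is low, the prolyl hydroxylases encoded by Egln1 and Egln3 no longer mark HIF1A and EPAS1 (HIF-2 alpha) for degradation, and these factors raise the transcription of most glycolytic genes and of many others. Much of that control acts on the HIF proteins, so the transcript level of Hif1a is not a measure of HIF activity. In the normal lung, EPAS1 is best known from endothelial cells.

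The cells came from lung adenocarcinomas of C57BL/6 mice that were microdissected, dissociated and split with magnetic CD45 beads into a CD45-negative and a CD45-positive fraction. CD45, encoded by Ptprc, is the surface protein of leukocytes. Each fraction gave 1 droplet library of the 10x 3′ version 2 kind, in which molecules near the transcript's 3′ end are counted by unique molecular identifiers (UMI). The sources used here give neither the tumours' genotype nor the age, sex and number of the mice, and no untumoured lung was among the samples. The cell names of both libraries start with LucOS, a label that these sources do not explain. The CD45-negative library held 3957 cells with 40873786 UMI, a median of 7710 per cell. The CD45-positive library held 11432 cells with 47477407 UMI, a median of 3376 per cell. The table thus holds more CD45-positive cells than the 6000 that the series' design text gives as loaded per channel. The least deep cells held 4646 UMI (CD45-negative) and 2204 UMI (CD45-positive), and 57 cell barcodes occurred in both libraries. With 1 library per fraction there is no replicate, so no test between conditions was possible. Values are UMI per 1000000 UMI of the summed cells (CPM), ratios of CPM, and 95% exact intervals that cover counting error only. UMI are counted per molecule at 1 transcript end, so levels were not divided by gene length.

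Each cell carried 1 of 7 deposited class names, and several of these names went against marker genes. The class deposited as AT1, the flat gas exchange cell of the alveolus, held less of the AT1 marker Ager (302 CPM) than the AT2 class did (1614 CPM) in the CD45-negative library. It held 0.2 CPM of Rtkn2, against 10.8 CPM in the AT2 class, and 658 CPM of Cldn4, against 71.7 CPM in the AT2 class. The keratins Krt7 and Krt8 stood at 2018 and 1856 CPM in it. It is therefore called the class deposited as AT1 throughout. The class deposited as Fibroblast held mesothelial genes (Msln 3633 CPM, Upk3b 2190 CPM). Its collagen mRNA was far lower than these (Col1a1 72.4 CPM, Col1a2 181 CPM), though the highest of the 7 classes of the CD45-negative library. The class deposited as Ciliated held 437 CPM of the ciliated factor Foxj1 and 225427 CPM of Scgb1a1, the secretory protein of club cells. Transcripts of other cells were present in every class: the AT2 gene Sftpc stood between 2997 and 6317 CPM in the CD45-negative classes other than AT2 and Ciliated. At least 1 Ptprc UMI was found in 0.575% to 1.69% of cells of each class other than Immune in the CD45-negative library, and in 25.8% to 37.9% in the CD45-positive library.

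RefSeq promoter windows (build GRCm38.p6, 250 bases before to 50 bases after the start) were available for 32 of the 36 genes. Slc2a3, Epas1, Bnip3l and Ndrg1 had no entry. The letters ACGTG, the core of the element that HIF binds, were found on either strand in 21 of the 32 windows (65.6%), against 19.7% of 27025 windows of all genes and 23.9% of 12701 windows of genes in the count table. The related letters GCGTG were found in 19 of the 32 (59.4%), against 32.5% and 47.1%. One or the other stood in 27 of the 32 (84.4%), against 43.8% and 58.4%. The windows of Hk1, Gpi1, Aldoa, Tpi1 and Pkm held neither. The windows of the 32 genes were also richer in G and C, with a mean of 63.7%, against 53.6% over all windows and 59.6% over those of genes in the table. ACGTG can overlap the CACGTG E-box, which is bound by other factors too, and 5 of the 32 windows held CACGTG. A match describes letters and is not a measured binding site. The windows of 5 genes named in the results below, each with a match, are printed 5′ to 3′ on the gene's strand. They are in lower case with every match to either pentamer, read on either strand, in capitals. The genes are the paired lactate dehydrogenases, the lactate carrier Slc16a1, Eno1 and Ddit4. The window of Pkm, which the results below also turn on, had no match and is not printed.
Ldha (chr7:46845554-46845853, plus strand): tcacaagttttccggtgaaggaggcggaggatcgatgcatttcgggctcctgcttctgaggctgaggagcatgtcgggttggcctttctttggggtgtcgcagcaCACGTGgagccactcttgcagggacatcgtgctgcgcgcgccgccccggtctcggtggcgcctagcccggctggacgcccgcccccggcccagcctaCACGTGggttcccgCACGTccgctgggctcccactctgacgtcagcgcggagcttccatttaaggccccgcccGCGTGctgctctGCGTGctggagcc
Ldhb (chr6:142507908-142508207, minus strand): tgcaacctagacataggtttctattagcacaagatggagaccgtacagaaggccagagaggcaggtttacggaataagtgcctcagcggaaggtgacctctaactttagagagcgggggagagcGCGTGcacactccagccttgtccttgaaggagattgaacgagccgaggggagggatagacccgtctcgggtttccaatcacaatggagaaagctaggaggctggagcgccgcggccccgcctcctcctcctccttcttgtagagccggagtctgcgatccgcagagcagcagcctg
Slc16a1 (chr3:104638414-104638713, plus strand): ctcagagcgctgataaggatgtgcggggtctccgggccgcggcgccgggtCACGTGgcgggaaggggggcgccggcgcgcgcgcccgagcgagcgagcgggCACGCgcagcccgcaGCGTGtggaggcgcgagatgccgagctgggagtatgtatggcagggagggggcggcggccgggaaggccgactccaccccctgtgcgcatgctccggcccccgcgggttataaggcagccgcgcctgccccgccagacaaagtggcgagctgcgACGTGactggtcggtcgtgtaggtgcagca
Eno1 (chr4:150236458-150236757, plus strand): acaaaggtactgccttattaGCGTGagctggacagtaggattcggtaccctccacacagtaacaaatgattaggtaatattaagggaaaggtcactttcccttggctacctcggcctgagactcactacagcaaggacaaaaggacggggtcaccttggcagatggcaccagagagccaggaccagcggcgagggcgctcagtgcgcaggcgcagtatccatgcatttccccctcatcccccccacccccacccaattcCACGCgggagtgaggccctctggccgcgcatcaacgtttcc
Ddit4 (chr10:59951721-59952020, minus strand): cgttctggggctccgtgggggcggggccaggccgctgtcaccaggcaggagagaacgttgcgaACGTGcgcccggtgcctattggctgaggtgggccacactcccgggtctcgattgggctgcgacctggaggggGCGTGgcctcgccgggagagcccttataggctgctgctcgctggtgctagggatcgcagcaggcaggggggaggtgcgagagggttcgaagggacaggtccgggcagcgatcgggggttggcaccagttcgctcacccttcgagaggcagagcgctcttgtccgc
The Ldha window held 7 such matches and the Slc16a1 window 5, while the Eno1 and Ddit4 windows held 2 each and the Ldhb window 1. Each CACGTG counts as 2 matches here, 1 per strand, and the Ldha window held 2 of them and the Slc16a1 window 1. For genes with more than 1 entry, 9 of the 32, the first entry was used.

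The 36 genes were not highest in the same cells. In the CD45-negative library the class deposited as AT1 led for 9 genes, the class deposited as Fibroblast for 9, endothelial cells for 8, the class deposited as Ciliated and immune cells for 4 each, and the AT2 and erythrocyte classes for 1 each. For 30 of the 36 the leading class stood above the next beyond the interval of their ratio. In the CD45-positive library this held for 17, and 24 of the 36 had the same leading class in both libraries. The erythrocyte class was lowest in CPM for most of the enzymes. In it 5 erythroid genes summed to 843338 CPM in the CD45-negative and 639943 CPM in the CD45-positive library, which lowers the CPM of every other gene there. Levels outside these genes were not computed.

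**Figure D1:**
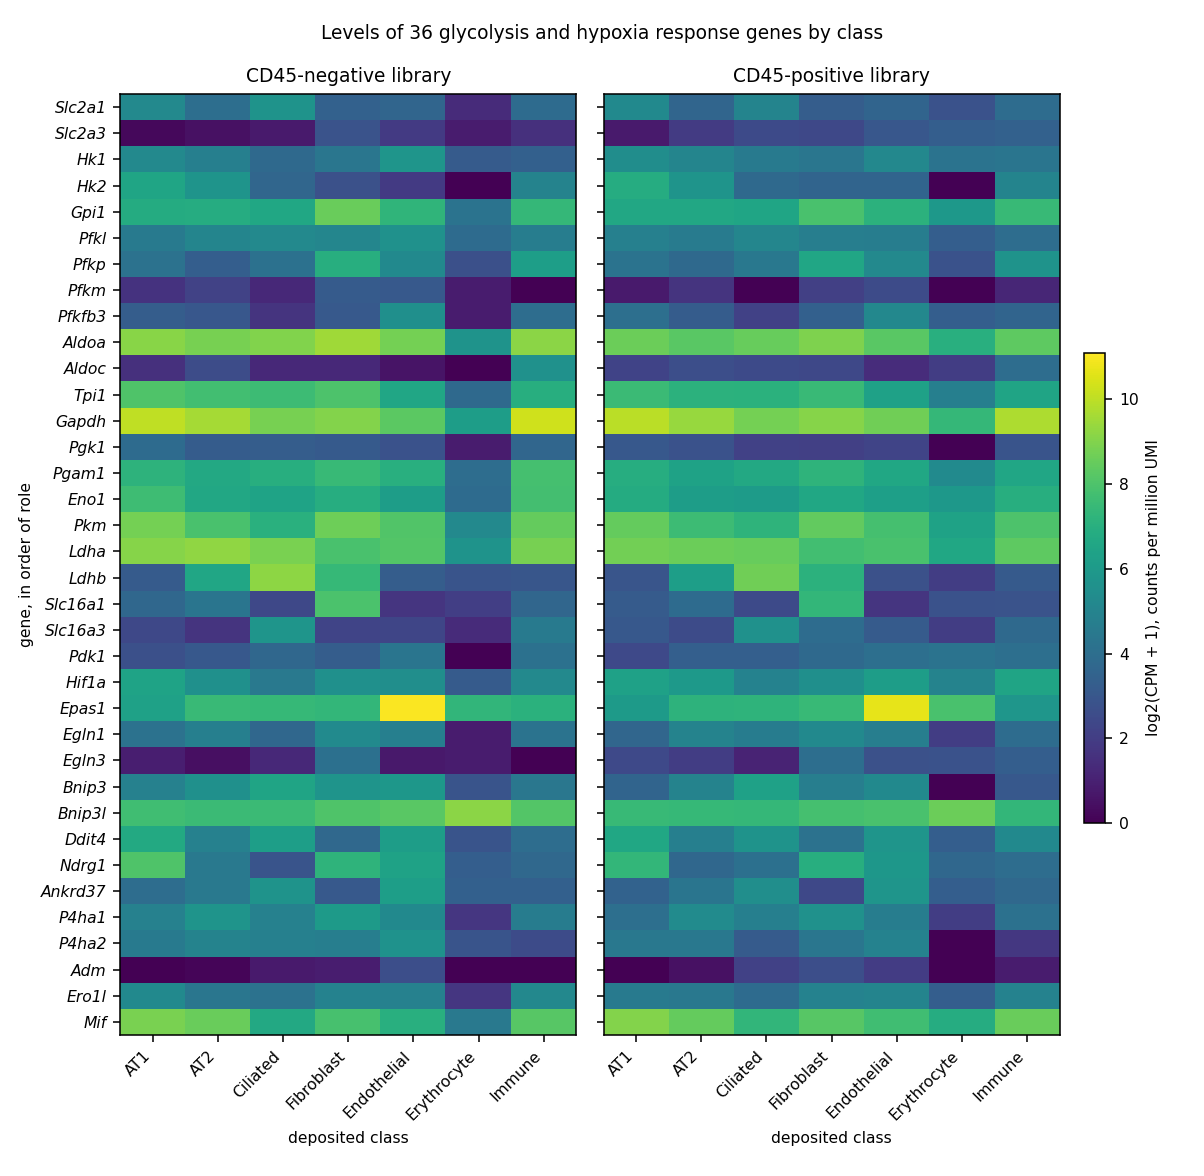
Level of each gene, as log2(CPM + 1) in colour, in the 7 deposited classes of the CD45-negative library (left) and the CD45-positive library (right), with genes in order of role from glucose uptake to hypoxia targets. Single bright cells stand out for Epas1 in endothelial cells, Slc16a1 in the class deposited as Fibroblast and Ldhb in the class deposited as Ciliated, in both libraries.

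Of the 2 glucose transporters, Slc2a1 (GLUT1) had its highest levels in the classes deposited as Ciliated and AT1, and Slc2a3 (GLUT3) was low in all classes. In the CD45-negative library Slc2a1 stood at 50.3 CPM in the class deposited as Ciliated, 36.7 CPM in the class deposited as AT1 and 14.9 CPM in AT2 cells. The ratio of the first to the second was 1.37 (1.03 to 1.81). CD45-positive cells had these classes the other way round, at 37.6 CPM in the class deposited as AT1 and 31.2 CPM in the class deposited as Ciliated. Slc2a3 reached at most 6.13 CPM in any CD45-negative class, with 61 UMI in the whole library. In the CD45-positive library it was led by immune cells at 10.0 CPM.

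Of the enzymes that trap glucose, Hk2, the hexokinase isoform induced in many tumours, was led by the class deposited as AT1 at 92.0 CPM in the CD45-negative library. This was 1.73-fold (1.55 to 1.93) above AT2 cells, at 53.0 CPM, and endothelial cells held 2.74 CPM. Hk1, the widespread isoform, was led by endothelial cells at 53.8 CPM, against 36.7 CPM in the class deposited as AT1. The 2 isoforms were thus split between cell types: Hk2 made up 71.4% (67.9 to 74.8) of the hexokinase UMI in the class deposited as AT1, 66.4% in AT2 cells and 4.85% (3.22 to 6.97) in endothelial cells. The CD45-positive library gave 73.5%, 62.4% and 23.5% for the same classes. No Hk2 UMI was counted in the erythrocyte class of the CD45-negative library, where the floor of 3 UMI corresponded to 2.40 CPM and the exact upper limit to 2.96 CPM.

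The next steps were led by the class deposited as Fibroblast. Gpi1, which turns glucose 6-phosphate into fructose 6-phosphate, stood at 377 CPM there in the CD45-negative library, 2.26-fold above immune cells (1.92 to 2.66). Its level in the CD45-positive library was 243 CPM, again the highest. Pfkp, the platelet isoform of phosphofructokinase, which commits sugar to glycolysis, stood at 125 CPM in that class of the CD45-negative library and 93.1 CPM in that of the CD45-positive library. It made up 75.0% (71.2 to 78.5) of phosphofructokinase UMI in that class and 74.3% in immune cells of the CD45-negative library, against 19.9% (17.2 to 22.8) in AT2 cells, where the liver isoform Pfkl prevailed at 32.2 CPM. Pfkm, the muscle isoform, stayed at or below 8.17 CPM in every class. Pfkfb3 makes fructose 2,6-bisphosphate, the activator of phosphofructokinase. It was led by endothelial cells in both libraries, at 44.7 CPM among CD45-negative and 35.1 CPM among CD45-positive cells, which was 3.07-fold (1.84 to 5.53) and 2.27-fold (1.46 to 3.72) above the next class.

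Aldoa, the main aldolase, stood between 443 CPM in endothelial cells and 734 CPM in the class deposited as Fibroblast in the CD45-negative classes other than erythrocytes. Erythrocytes held 51.3 CPM, with most of their total taken by erythroid genes. Aldoc, the brain-type aldolase, was highest in immune cells: 47.6 CPM in the 108 immune cells of the CD45-negative library and 14.9 CPM in the 7438 of the CD45-positive library. The next class, AT2, stood at 4.96 and 5.37 CPM in the 2 libraries. Tpi1, which interconverts the triose phosphates, did not separate its first 2 classes: the class deposited as AT1 at 260 CPM and the class deposited as Fibroblast at 254 CPM had a ratio of 1.02 (0.941 to 1.12).

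The later steps of the pathway, which recover ATP, were led by immune cells and the class deposited as AT1. In the CD45-negative library Gapdh stood at 1246 CPM in immune cells, 1041 CPM in the class deposited as AT1, 780 CPM in AT2 cells and 313 CPM in endothelial cells. Pkm, pyruvate kinase, stood at 432 CPM in the class deposited as AT1 and 404 CPM in the class deposited as Fibroblast, against 238 CPM in AT2 cells. Eno1, enolase, stood at 217 CPM in immune cells and 198 CPM in the class deposited as AT1, a ratio of 1.09 (0.941 to 1.26), against 101 CPM in AT2 cells. The same 2 classes led Eno1 in the CD45-positive library at 125 and 111 CPM. Pgam1, phosphoglycerate mutase, was led by immune cells at 228 CPM and the class deposited as Fibroblast at 177 CPM. Pgk1, phosphoglycerate kinase, was counted at 13.6 CPM or less in every class, far below its neighbours in the pathway. Gapdh, Pgk1, Pgam1, Eno1, Pkm, Aldoa, Tpi1, Ldha and Mif have near-identical copies in the mouse genome, and how the deposited counting treated reads shared with them was not tested, so levels of these genes are uncertain.

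The genes of lactate and pyruvate handling included the largest ratio of a first to a second class among the 36 in the CD45-negative library, that of Slc16a1. Ldha encodes the lactate dehydrogenase subunit that prevails where pyruvate is turned into lactate. It stood at 611 CPM in AT2 cells, 540 CPM in the class deposited as AT1, 471 CPM in the class deposited as Ciliated and 237 CPM in the class deposited as Fibroblast of the CD45-negative library. Ldhb, the subunit that prevails in tissues that burn lactate, had another order: 593 CPM (554 to 635) in the class deposited as Ciliated, 175 CPM in the class deposited as Fibroblast, 95.04 CPM in AT2 cells and 8.21 CPM in the class deposited as AT1. The first was 3.40-fold above the second (3.06 to 3.78), and in the CD45-positive library 2.98-fold, at 413 and 139 CPM. At least 1 Ldhb UMI was found in 91.7% of the 108 cells of the class deposited as Ciliated, at a median depth of 9270 UMI, and in 6.25% of endothelial cells, at 6808 UMI.

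As a share of Ldha and Ldhb together, Ldhb made up 55.8% (53.2 to 58.3) in the class deposited as Ciliated, 42.4% (39.8 to 45.1) in the class deposited as Fibroblast, 13.5% in AT2 cells and 1.497% (1.089 to 2.004) in the class deposited as AT1. The CD45-positive library gave 53.0%, 39.4%, 16.1% and 1.55% for the same classes. Because the class deposited as Ciliated also held the club cell gene Scgb1a1, it was split by its own markers. The 82 CD45-negative cells with 3 or more ciliated markers held 617 CPM of Ldhb and the 26 other cells 506 CPM, a ratio of 1.22 (1.02 to 1.47). In the CD45-positive library the ratio was 0.741 (0.572 to 0.970). Ldha was 2.79-fold higher (2.13 to 3.73) in the 82 cells than in the 26, and 1.56-fold (1.09 to 2.28) in the CD45-positive library. Scgb1a1 took 137434 CPM in the 82 cells and 556053 CPM in the 26, which lowers the CPM of all other genes more in the 26. In the CD45-positive library it took 137823 CPM in cells with 3 or more ciliated markers and 456037 CPM in the others. Ratios without Scgb1a1 in the total were not computed, so the direction for Ldhb is uncertain.

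The lactate carriers were split as sharply. Slc16a1 (MCT1), which moves lactate in either direction, stood at 244 CPM (228 to 261) in the class deposited as Fibroblast of the CD45-negative library, against 18.9 CPM in AT2 cells, 11.9 CPM in the class deposited as AT1 and 2.23 CPM in endothelial cells. The first was 12.9-fold above the second (11.4 to 14.7), and in the CD45-positive library 11.9-fold (9.17 to 15.5), at 161 and 13.6 CPM. In the CD45-negative library 276 of 356 cells of that class held a Slc16a1 UMI (77.5%), against 19 of 1249 endothelial cells (1.52%), at median depths of 8026 and 6808 UMI per cell. With every cell thinned to 1000 UMI these shares were 21.1% and 0.240%. Slc16a3 (MCT4), the exporter found in glycolytic cells, was led by the class deposited as Ciliated at 53.9 CPM, followed by immune cells at 22.4 CPM, a ratio of 2.41 (1.49 to 4.03). Among CD45-negative cells its UMI lay in the part of that class with ciliated markers: 68.2 CPM in those 82 cells and none in the other 26, at least 6.65-fold higher against a floor of 3 UMI (the exact interval of the ratio has a lower limit of 5.28). In the CD45-positive library the 98 cells with ciliated markers held 55.1 CPM and the 18 others 14.3 CPM, on 2 UMI, a ratio of 3.86 (1.001 to 33.0). As for Ldhb, the totals behind these levels include Scgb1a1. Slc16a1 made up 98.5% of the pair's UMI in the class deposited as Fibroblast and 7.41% (2.77 to 15.4) in the class deposited as Ciliated. Pdk1, the kinase that holds pyruvate back from mitochondria, ranged up to 18.8 CPM, in endothelial cells, and did not separate from immune cells at 16.5 CPM (ratio 1.14, 0.690 to 1.99).

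**Figure D2:**
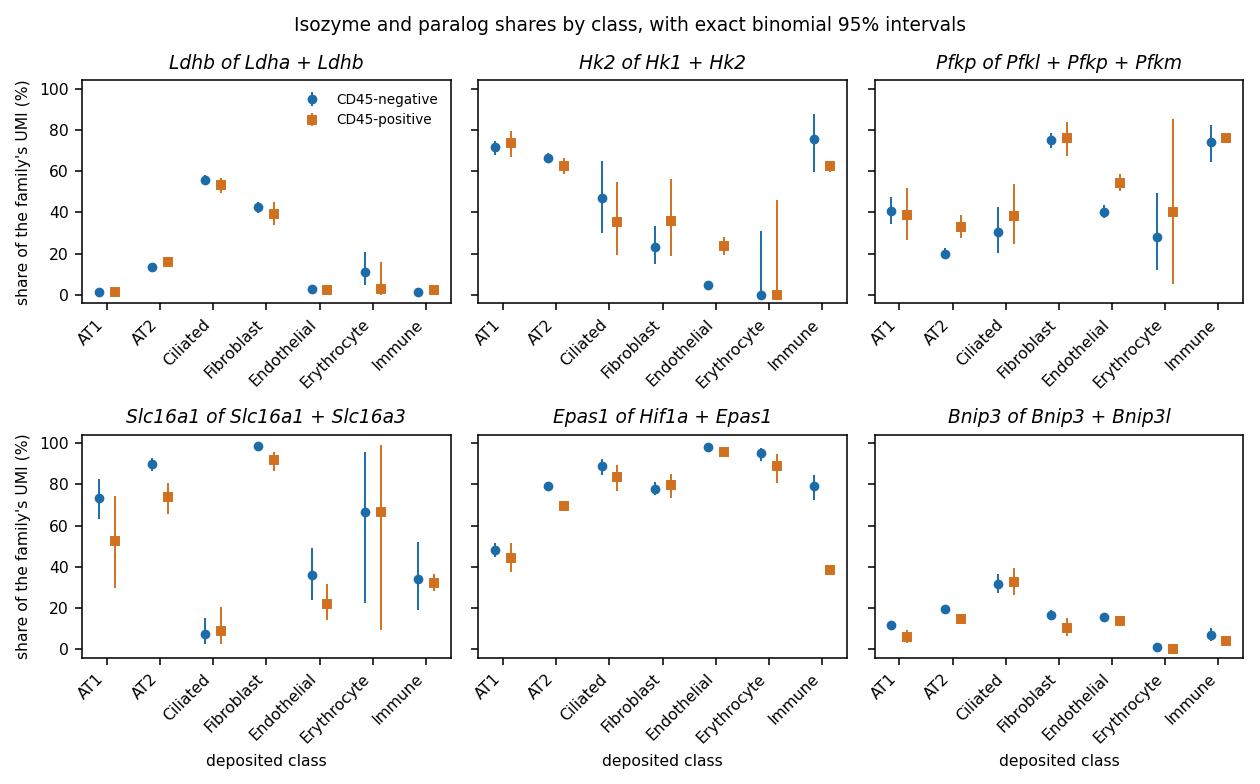
Share of 6 genes among the UMI of their own family (vertical axes, %) in each deposited class, circles for the CD45-negative and squares for the CD45-positive library, with exact binomial 95% intervals. Ldhb exceeds Ldha in the class deposited as Ciliated, at 55.8% among CD45-negative and 53.0% among CD45-positive cells, and Slc16a1 makes up 98.5% and 92.0% of its pair in the class deposited as Fibroblast.

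Among the oxygen sensing genes, Epas1 was the endothelial member. In the CD45-negative library it stood at 2103 CPM (2074 to 2132) in endothelial cells, 181 CPM in AT2 cells, 175 CPM in the class deposited as Ciliated, 163 CPM in the class deposited as Fibroblast, 160 CPM in erythrocytes, 135 CPM in immune cells and 79.7 CPM in the class deposited as AT1. Endothelial cells were 11.6-fold above AT2 cells (11.2 to 12.0) and held 80.8% of the library's Epas1 UMI. In the CD45-positive library they stood at 1630 CPM. Other endothelial transcripts were counted in the other classes too: AT2 cells held 8.63% of the endothelial level of Epas1, and 5.48% and 5.03% of that of the endothelial genes Pecam1 and Cdh5. Erythrocytes held 7.59% of the endothelial Epas1 level, and 10.5% and 10.6% for Pecam1 and Cdh5. How much of Epas1 in these classes came from endothelial RNA was not tested.

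Hif1a was more even. It stood at 85.1 CPM in the class deposited as AT1 of the CD45-negative library, against 47.1 CPM in AT2 cells, 1.81-fold (1.61 to 2.03). In the CD45-positive library immune cells (88.4 CPM) and the class deposited as AT1 (81.1 CPM) did not separate, at a ratio of 1.09 (0.901 to 1.33). Epas1 therefore made up 97.9% of the 2 factors' UMI in endothelial cells, 79.4% in AT2 cells and 48.4% (45.02 to 51.7) in the class deposited as AT1. Egln1, the main oxygen sensor, was led by the class deposited as Fibroblast at 38.5 CPM, 1.42-fold above AT2 cells (1.16 to 1.73). Egln3, the hydroxylase that HIF itself induces, reached 16.1 CPM in that class and no more than 1.44 CPM in the other 6 classes of the CD45-negative library, where 77 UMI were counted in all.

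The hypoxia-inducible targets did not move as a block across classes. Ndrg1, a gene induced by hypoxia and by differentiation, was led by the class deposited as AT1 in both libraries, at 266 CPM (252 to 280) among CD45-negative and 163 CPM among CD45-positive cells. The class deposited as Fibroblast followed at 148 and 123 CPM, which gave ratios of 1.80 (1.62 to 1.99) and 1.32 (1.05 to 1.67). AT2 cells held 21.5 CPM in the CD45-negative library. Ddit4 (REDD1), which restrains mTORC1 under stress, was led by the same class at 105 and 96.5 CPM, while the class deposited as Ciliated held 74.0 CPM and AT2 cells 28.1 CPM in the CD45-negative library.

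Ankrd37, a HIF-1 target of little known function, and P4ha2, a subunit of the collagen prolyl hydroxylase, were led by endothelial cells, at 73.3 and 49.7 CPM in the CD45-negative library and 54.3 and 29.7 CPM in the CD45-positive library. The endothelial class of the CD45-negative library also held collagen mRNA, with 569 UMI of Col1a1 (57.7 CPM) and 832 of Col1a2 (84.4 CPM). The class deposited as Fibroblast held 248 (72.4 CPM) and 620 (181 CPM), so its levels were higher in CPM. The part of other cells in P4ha2 was not tested. The sister subunit P4ha1 was led by the class deposited as Fibroblast at 66.0 CPM. The mitophagy receptor Bnip3 was led by the class deposited as Ciliated in both libraries, at 88.4 and 80.8 CPM. Its relative Bnip3l (NIX), which clears mitochondria as red cells mature, was led by erythrocytes in both libraries, at 580 CPM among CD45-negative and 389 CPM among CD45-positive cells. Adm, the vasodilator peptide adrenomedullin, was near the detection limit, with 58 and 59 UMI in the 2 libraries, 89.7% of those of the CD45-negative library in endothelial cells. Ero1l, the oxidase of the endoplasmic reticulum, did not separate the class deposited as AT1 (37.7 CPM) from immune cells (35.0 CPM). Mif, a cytokine-like protein that HIF induces, was led by the class deposited as AT1, at 472 and 529 CPM.

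Between the 2 fractions over all cells, 11 of the 36 genes were higher by 1.5-fold or more in the CD45-negative library and 5 lower. Among all 14209 genes with at least 50 UMI, 33.2% were higher and 14.9% lower. The genes that were lower in the CD45-negative library were Slc2a3 (1.49 CPM among CD45-negative and 7.84 CPM among CD45-positive cells, ratio 0.190), Egln3 (0.262), Aldoc (0.396), Slc16a3 (0.469) and Hif1a (49.0 and 78.6 CPM, ratio 0.623, 0.590 to 0.658). Those that were higher were led by Slc16a1 (31.7 and 9.65 CPM, ratio 3.28, 2.95 to 3.66), Ldhb (2.94), P4ha2 (2.82), Ndrg1 (2.71) and Bnip3 (2.54). The libraries also differed in the share of each class, and its part in these ratios was not tested.

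Within the AT2 class, 5 of 33 genes with at least 50 UMI were higher by 1.5-fold in the CD45-negative library and 1 lower, against 8.02% and 8.85% of 11315 genes. The median log2 ratio was 0.28 over the 33 genes and 0.05 over all genes tested. Ndrg1 stood at 21.5 CPM in CD45-negative AT2 cells and 12.1 CPM in CD45-positive AT2 cells, a ratio of 1.78 (1.41 to 2.26). Ldha stood at 611 and 390 CPM, a ratio of 1.57 (1.503 to 1.63), and Bnip3 at 47.0 and 30.0 CPM, a ratio of 1.57 (1.35 to 1.82). Tpi1 had a ratio of 1.502, and Pfkm one of 1.65 whose interval (0.947 to 3.06) held 1. Over 9 alternatives the ratio was as low as 1.31 for Ndrg1, 1.36 for Ldha, 1.46 for Bnip3 and 1.13 for Tpi1, so each of these 4 was under 1.5-fold in at least 1 of them. Slc16a3 was lower, at 2.16 CPM in CD45-negative and 4.84 CPM in CD45-positive AT2 cells. The summed level of 7 leukocyte markers was 69.1 CPM in CD45-negative and 877 CPM in CD45-positive AT2 cells, with 7 of 7 lower in the CD45-negative cells, and their part in the result was not tested.

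Within the endothelial class, 7 of 34 genes were higher in the CD45-negative library and 6 lower, against 17.2% and 8.52% of 11258 genes. The lower ones were Egln3 (7 UMI in CD45-negative and 51 UMI in CD45-positive endothelial cells), Hk2 (2.74 and 10.96 CPM, ratio 0.2498, 0.157 to 0.386), Slc2a3 (0.393), Slc16a3 (0.483), Mif (125 and 204 CPM, ratio 0.615) and Hif1a (44.3 and 70.8 CPM, ratio 0.626). Leukocyte markers summed to 757 CPM in CD45-negative and 1843 CPM in CD45-positive endothelial cells, and to 2651 CPM in CD45-negative immune cells. Ptprc, one of the 7 markers, stood at 2.03 CPM in CD45-negative endothelial and 186 CPM in CD45-negative immune cells. The sum thus did not follow Ptprc, and how much of it was leukocyte RNA was not tested. Among cells with 0 Ptprc UMI, 1235 CD45-negative and 1479 CD45-positive, the ratio of Hk2 was 0.275, that of Slc16a3 0.511, that of Hif1a 0.664 and that of Mif 0.682, which left Mif, Hk1 and P4ha2 under 1.5-fold. Cells with no UMI of the 7 leukocyte markers were 59 of 1249 CD45-negative and 59 of 2172 CD45-positive endothelial cells. Among them Hif1a had a ratio of 1.34, Pfkm one of 0.719 and P4ha2 one of 0.516. Since this filter dropped most cells of both libraries, it does not single out leukocyte RNA. The higher ones were Pfkl (48.5 and 25.4 CPM, ratio 1.91, 1.63 to 2.25), Adm, P4ha2, Pfkm, Pgk1, Ldhb and Hk1, at ratios from 1.51 to 1.83 for the last 6.

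Within the immune class the comparison set 108 cells that passed into the CD45-negative fraction against 7438 CD45-positive cells. Of 34 genes, 12 were higher and 5 lower in the CD45-negative cells, against 26.7% and 20.5% of 10859 genes. Aldoc (47.6 and 14.9 CPM, ratio 3.21, 2.33 to 4.32), Bnip3 (2.80), Epas1 (2.45) and Pgam1 (2.43) had the highest ratios. Slc2a3 (0.194), Ddit4 (0.384), Hif1a (0.407) and Hk1 (0.515) were lower, and Egln3 had no UMI in the CD45-negative cells and 244 in the CD45-positive ones, which put the ratio at 0.329 or less against a floor of 3 UMI in the CD45-negative cells. Lyz2, a gene of macrophages and AT2 cells, stood at 17836 CPM in the CD45-negative cells and 5033 CPM in the CD45-positive ones. The sum of 10 AT2 markers was 21916 and 7478 CPM, that of 10 endothelial markers 772 and 336 CPM, and that of 7 cycling markers 544 and 177 CPM, and their part in the ratios was not tested. Makeup of the class and fraction cannot be told apart here.

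CD45-positive cells of the immune class were resolved with marker gates: a cell passed a gate with 3 or more of its markers, and cells that passed more than 1 gate (2684) or none (723) were left out. The gates held 717 alveolar macrophage, 160 C1q macrophage, 235 neutrophil, 44 mature dendritic cell, 2132 T cell, 494 B cell and 249 plasma cell barcodes. Ndrg1 stood at 217 CPM in the mature dendritic cell gate, 10.2-fold above the neutrophil gate at 21.3 CPM (5.45 to 20.1). Pfkfb3 stood at 121 CPM in the same gate, 5.12-fold above the C1q macrophage gate (2.49 to 10.8). These 44 cells held 165585 UMI in all, so the floor of 3 UMI corresponded to 18.1 CPM there and the exact upper limit of a count of 0 to 22.3 CPM.

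Of the other gates, all but the B cell gate led genes beyond the interval of the ratio to the next gate. The B cell gate was first for 2 genes, of which 0 lay above the next gate beyond that interval. In the neutrophil gate Egln3 stood at 41.2 CPM, 4.72-fold above the T cell gate (2.93 to 7.46), and Slc16a3 at 32.7 CPM, 1.73-fold above the alveolar macrophage gate (1.01 to 2.86). The alveolar macrophage gate led Aldoc at 60.9 CPM, 4.31-fold above the C1q macrophage gate (2.22 to 9.58), Bnip3l at 273 CPM and Epas1 at 109 CPM. Endothelial markers summed to 666 CPM in the alveolar macrophage gate, against 436 CPM in the neutrophil gate and 201 CPM in the T cell gate, and their part in the Epas1 level was not tested. The T cell gate led Ldha at 432 CPM, 1.28-fold above the neutrophil gate (1.12 to 1.47), and Ddit4 at 58.5 CPM, 1.58-fold above the plasma cell gate (1.11 to 2.31). Hif1a at 118 CPM in the T cell gate and 105 CPM in the neutrophil gate did not separate. Eno1 was led by the C1q macrophage gate at 190 CPM and was lowest in the plasma cell gate at 30.5 CPM. The plasma cell gate was also lowest for Ldha, at 123 CPM, and led Ero1l, whose product makes disulphide bonds in secreted proteins, at 54.4 CPM, 1.81-fold above the alveolar macrophage gate (1.25 to 2.59).

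**Figure D3:**
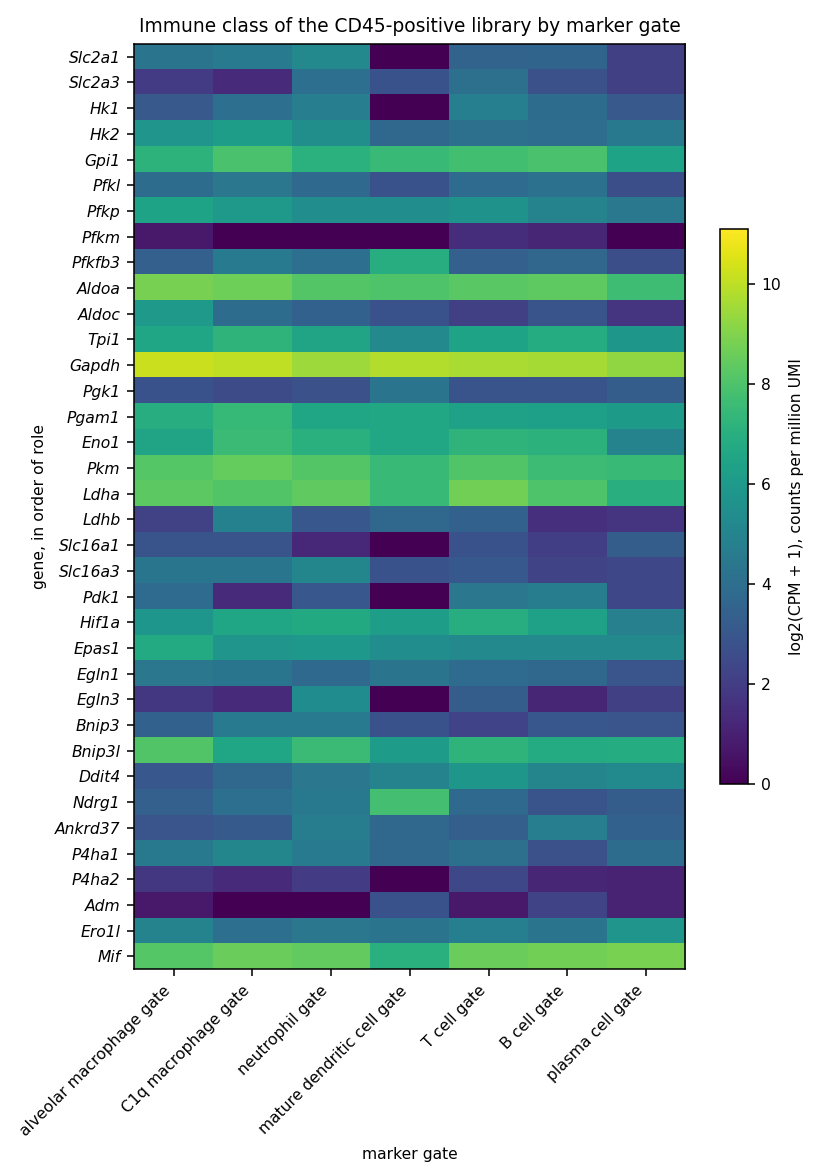
Level of each gene, as log2(CPM + 1) in colour, in the 7 marker gates of CD45-positive immune cells. Ndrg1 and Pfkfb3 are brightest in the mature dendritic cell gate, Egln3 in the neutrophil gate and Aldoc in the alveolar macrophage gate.

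AT2 cells of the CD45-negative library were then compared by Cldn4, a tight junction gene that marks transitional alveolar cells in injured mouse lung. No deposited class is named as tumour cells, and tumour and normal cells were not told apart within the AT2 class. Cells with 2 or more Cldn4 UMI (173 cells) were set against cells with 0 (1319 cells), and their median depths were 15356 and 7648 UMI. Of 32 genes with at least 50 UMI, 14 were higher by 1.5-fold in the cells with Cldn4 and 2 lower, against 32.1% and 6.94% of 10234 genes. The median log2 ratio was 0.55 over the 32 genes and 0.39 over all genes tested. The order of these medians depended on the setting. Among cells with 6000 to 12000 UMI they were 0.18 and 0.40, and with the mean of per-cell CPM 0.42 and 0.45. Without high-mitochondrial and the deepest cells they were 0.38 and 0.43. The other settings kept the first order, with 0.45 and 0.43 for cells thinned to 4000 UMI. Slc2a3, Slc16a3, Egln3 and Adm had fewer than 50 UMI in the 2 groups together and were not compared. By role, 6 of 10 genes of upper glycolysis, 3 of 5 of lower glycolysis, 1 of 3 of oxygen sensing and 3 of 9 hypoxia targets that were compared were higher, as was Slc2a1, and none of the 4 genes of lactate and pyruvate handling.

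Ndrg1 had the highest ratio: 57.1 CPM in cells with 2 or more Cldn4 UMI and 11.2 CPM in cells with 0, 5.09-fold higher (4.08 to 6.35), and 2.77-fold to 15.2-fold over 15 alternatives. Eno1 stood at 199 and 72.5 CPM in these groups, 2.74-fold (2.48 to 3.03). Pkm stood at 429 and 185 CPM, 2.32-fold (2.17 to 2.48). These 3 genes thus lay well above the median gene. Ddit4 stood at 48.7 and 21.3 CPM, 2.29-fold (1.88 to 2.79), and Pfkfb3 at 12.7 and 5.73 CPM, 2.21-fold (1.49 to 3.26). Ankrd37 (1.95), Pfkp (1.90), Slc2a1 (23.1 and 12.4 CPM, 1.86), Hk1 (1.84), Pfkl (1.69), Hif1a (66.3 and 40.5 CPM, 1.64), Pgam1 (1.57), Aldoa (613 and 401 CPM, 1.53) and Pfkm (1.52, 0.811 to 2.74) made up the rest, and the interval of Pfkm held 1. Pfkp came out at 0.961 among cells with 6000 to 12000 UMI, Pfkm at 0.589 with groups set after thinning every cell to 4000 UMI, and Hk1 at 0.943 among cells with at most 3 AT1 markers, 9 against 633.

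Ldha, Ldhb and Slc16a1, genes that make and carry lactate, were not past 1.5-fold higher. Slc16a3, the other carrier, was not compared, with 13 UMI (3.75 CPM) in cells with 2 or more Cldn4 UMI and 19 UMI (1.49 CPM) in cells with 0. Ldha stood at 699 CPM in cells with 2 or more Cldn4 UMI and 595 CPM in cells with 0, a ratio of 1.18 (1.12 to 1.23). Ldhb was lower, at 52.5 and 109 CPM, a ratio of 0.484 (0.412 to 0.565), and Slc16a1 had a ratio of 0.870 (0.642 to 1.16). Several classical HIF targets also had ratios near 1: Bnip3 at 0.952 (0.793 to 1.14), P4ha1 at 0.987 (0.831 to 1.17), Pdk1 at 0.929 (0.561 to 1.48) and Mif at 1.21. The median log2 ratio of all genes tested was 0.39, above those of these genes and of Ldha. Gapdh, at 1036 and 705 CPM, and Tpi1 both had ratios of 1.47. Epas1 was lower, at 114 and 204 CPM, a ratio of 0.557 (0.5001 to 0.620). The endothelial genes Pecam1 and Cdh5 had ratios of 0.591 and 0.544 in the same cells, 8 of 10 endothelial markers were lower and their sum was 512 and 923 CPM. Their part in the Epas1 result was not tested. With groups set after thinning neither Ldhb nor Epas1 was past 1.5-fold, and among cells with at most 3 AT1 markers the ratio of Epas1 was 1.10.

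**Figure D4:**
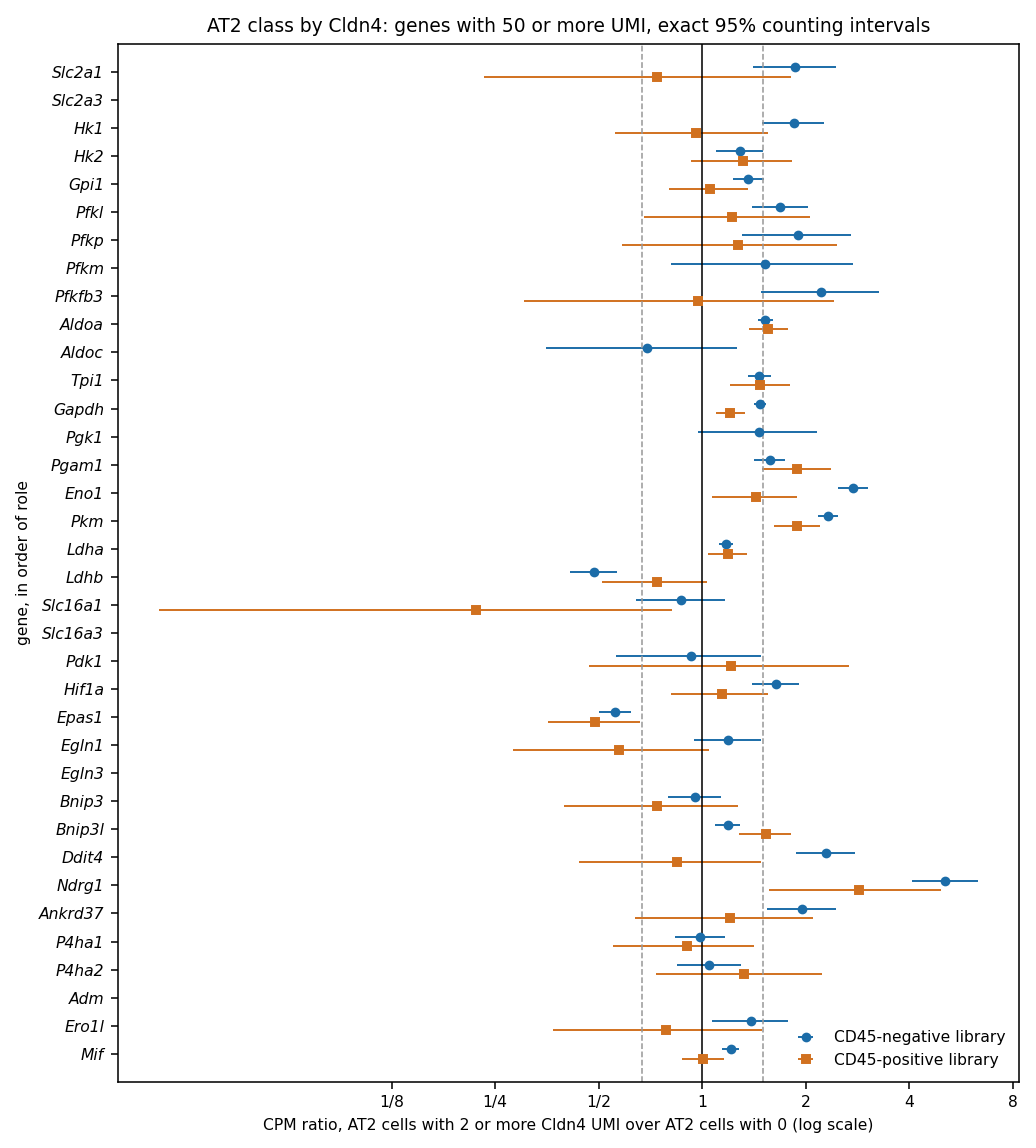
Ratio of CPM in AT2 cells with 2 or more Cldn4 UMI over AT2 cells with 0 (horizontal log axis), circles for the CD45-negative and squares for the CD45-positive library, for genes with at least 50 UMI in both groups together, with exact 95% counting intervals; dashed lines mark 1.5-fold. Ndrg1, Pkm, Pgam1 and Aldoa lie past 1.5-fold to the right and Epas1 to the left in both libraries.

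Across 4 bins of Cldn4 UMI in these AT2 cells (0, 1, 2 to 3, and 4 or more; 1319, 185, 86 and 87 cells), 15 of the 32 genes with at least 50 UMI were higher in each bin than in the one before, and 2, Ldhb and Epas1, were lower in each. Of all 10479 genes with at least 50 UMI in these bins, 20.9% were higher in each bin and 3.89% lower. In CD45-positive AT2 cells 3 of 29 genes (Hif1a, Bnip3l and P4ha2) were higher in each bin and 1 (Epas1) lower, against 12.8% and 4.47% of 8659 genes. Ndrg1 stood at 11.2, 24.7, 48.2 and 62.6 CPM from the lowest to the highest bin. Eno1 stood at 72.5, 111, 169 and 217 CPM, and Pkm at 185, 246, 355 and 475 CPM. Ddit4 stood at 21.3, 34.5, 43.7 and 51.9 CPM, with overlapping intervals between neighbouring upper bins. Epas1 stood at 204, 157, 131 and 103 CPM, and Ldhb at 109, 84.7, 78.3 and 36.5 CPM. Ldha had no such order, at 595, 566, 785 and 646 CPM. The median depth of the cells also differed, at 7648, 9878, 11238 and 20037 UMI, and its part in these values was not tested.

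**Figure D5:**
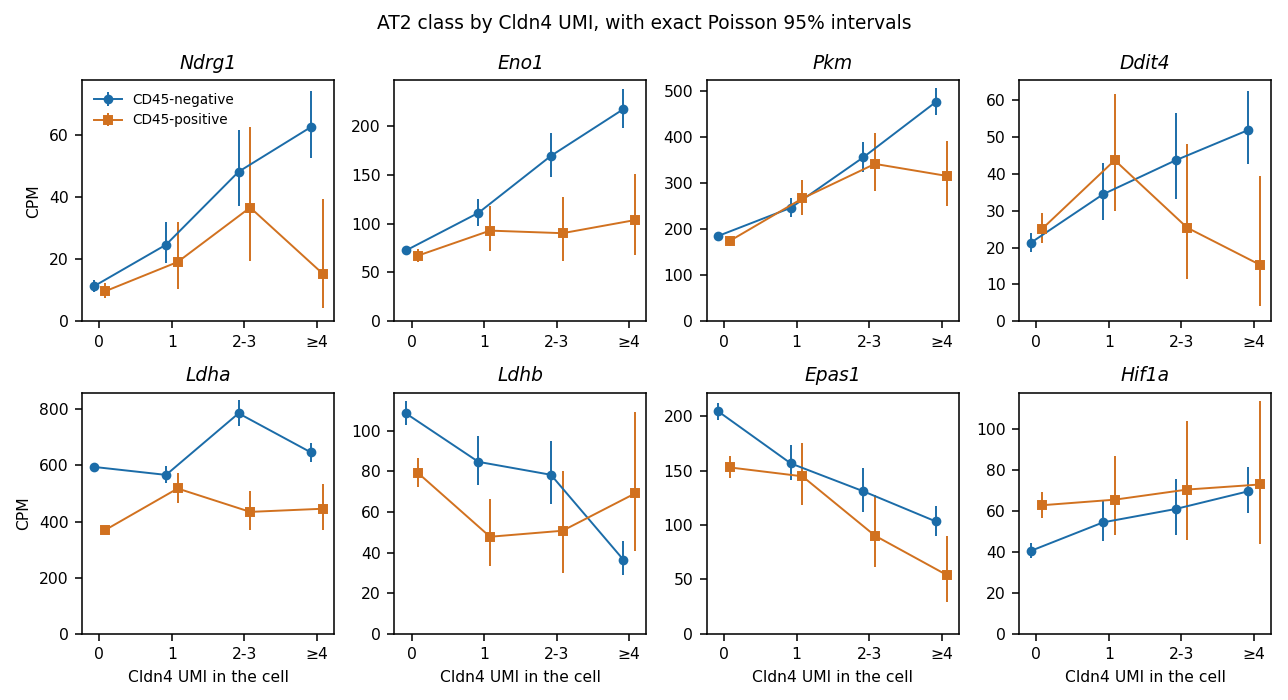
Level in CPM (vertical axes) of 8 genes in AT2 cells with 0, 1, 2 to 3, and 4 or more Cldn4 UMI (horizontal axes), circles for the CD45-negative and squares for the CD45-positive library, with exact Poisson 95% intervals. In the CD45-negative library Ndrg1, Eno1, Pkm, Ddit4 and Hif1a are higher in every bin than in the one before and Epas1 and Ldhb lower, whereas in the CD45-positive library Ndrg1, Eno1, Pkm and Ddit4 have no such order.

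The 2 groups differed in much more than these genes. Of 10 AT2 markers 8 were lower in cells with Cldn4, with a summed level of 72943 CPM against 218190 CPM in cells with 0, and 7 of 10 AT1 markers were higher, with sums of 5556 and 2562 CPM. Krt8 was 4.85-fold and Ager 2.10-fold higher. All 14 genes of a list induced by tissue dissociation were higher, against 32.1% of 10234 genes, among them Atf3 (179 and 31.8 CPM, 5.62-fold), Fosb (4.24-fold) and Dusp1 (3.53-fold). In CD45-positive AT2 cells 4 of these 14 genes were higher and 1 lower, against 22.6% and 14.5% of 8313 genes. The part of these shifts in the glycolysis and hypoxia genes was not tested. Without the 20 most abundant genes and the mitochondrial genes in the denominator, the all-gene median log2 ratio was 0.12 and that of the 32 genes 0.29. Then 9 genes were higher, against 15.7% of 10234 genes, and Pfkl, Pfkm, Aldoa, Pgam1 and Hif1a were no longer past 1.5-fold.

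Other genes of these pathways were counted in the same cells. Among all 10234 genes compared in these cells 32.1% were higher and 6.94% lower, which is the background for each list here. Of 14 further glycolysis genes with at least 50 UMI, 3 were higher in cells with 2 or more Cldn4 UMI and 2 lower. Pdk4, a kinase that inhibits pyruvate dehydrogenase, stood at 26.5 and 2.43 CPM, 10.9-fold higher (7.19 to 17.0). Hkdc1, a minor hexokinase, stood at 2.31 and 10.4 CPM, a ratio of 0.221 (0.0935 to 0.448), and Pfkfb4 at 13.6 and 23.3 CPM, a ratio of 0.581. Of 18 further HIF pathway genes 6 were higher and none lower, among them Bhlhe40 (99.2 and 37.9 CPM) at 2.62-fold and Kdm4b at 1.84-fold. Of 22 genes of pyruvate entry and the TCA cycle 3 were higher, and of 21 respiratory chain genes 1 (Atp5b, 1.53-fold). Of 12 pentose phosphate and branch pathway genes 4 were higher, led by G6pdx, the entry enzyme of that pathway, at 2.04-fold (1.60 to 2.57).

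The same comparison in AT2 cells of the CD45-positive library rested on 58 cells with 2 or more Cldn4 UMI and 1169 with 0, at median depths of 9302 and 4061 UMI. Of 29 genes 5 were higher and 3 lower, against 22.6% and 14.5% of 8313 genes. Ndrg1 stood at 27.6 and 9.68 CPM, 2.86-fold higher (1.56 to 4.97), on 17 and 59 UMI. Pkm stood at 330 and 174 CPM, 1.89-fold (1.62 to 2.20), and Pgam1 at 145 and 76.6 CPM, also 1.89-fold. Aldoa (1.56, and 0.733 among cells with at most 3 AT1 markers) and Bnip3l (1.53) completed the 5. Epas1 was lower at 74.8 and 153 CPM (0.489, 0.356 to 0.658), as were Slc16a1 on 2 and 90 UMI (0.220) and Egln1 (0.574, 0.282 to 1.05). Ddit4 had a ratio of 0.842 (0.438 to 1.48) and Eno1 one of 1.43 (1.07 to 1.88), so neither was past 1.5-fold here. Over 13 alternatives Ddit4 ranged from 0.612 to 2.36 and Eno1 from 1.05 to 5.31, the highest values being those of cells with no leukocyte marker UMI, 6 against 148. Among cells with 0 Ptprc UMI, 45 against 847, Eno1 was past 1.5-fold at 1.56 (1.10 to 2.17). Ndrg1 had too few UMI to be compared among these cells. Its ratio there was 2.13, with an interval that included no change (0.793 to 4.91). The higher level of Ndrg1 in this library was thus not established without the cells that held Ptprc. Without this filter the ratio of Pecam1 was 0.307 and that of Ptprc 0.313.

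Within the class deposited as AT1 of the CD45-negative library nearly all cells held Cldn4: 247 cells had 2 or more UMI and 18 had 0, with 5001969 and 141178 UMI in all. Of 25 genes 6 were higher in the cells with Cldn4 and 2 lower, against 26.4% and 14.8% of 6961 genes. These counts lie near the shares of all genes, and the 18 cells limit the precision of every ratio. Ddit4 stood at 110 CPM in cells with 2 or more Cldn4 UMI and 28.3 CPM in cells with 0, 3.89-fold (1.51 to 14.3), on 552 and 4 UMI. Bnip3l had a ratio of 1.57 (1.001 to 2.62) and Eno1 one of 1.58 (0.996 to 2.68), while those of Bnip3, Pfkp and Slc16a1 rested on 1 UMI in the 18 cells. Ndrg1 stood at 264 and 198 CPM, a ratio of 1.33 (0.918 to 2.01), and both levels lay above those of the AT2 groups. Ldha, at 531 and 765 CPM, and Mif, at 463 and 637 CPM, had ratios of 0.694 (0.572 to 0.849) and 0.727 (0.589 to 0.908), within 1.5-fold. The lower calls, Slc2a1 (0.639) and Pfkl (0.655), had intervals that held 1. Of the genes past 1.5-fold, Slc2a1, Pfkl, Pfkp, Slc16a1 and Bnip3 each changed side under an alternative. Over 15 alternatives the ratio of Ndrg1 ranged from 0.563 to 1.69 and that of Mif from 0.712 to 1.20, with the lowest value of Ndrg1 and the highest of Mif among cells with 6000 to 12000 UMI.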

How the data were processed

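The deposited table held whole-number UMI counts per gene and cell of both libraries together, made with Cell Ranger 1.1.0 on mm10 per the series' design text. Cell Ranger's filters and how the classes were derived are not stated in what was used here, 6000 cells were loaded per channel per that text, and 0 columns were left unmapped. Counts of the cells of a group were summed and divided by the group's total to give CPM, with exact Poisson, Clopper-Pearson or conditional binomial 95% intervals. The statistics were tested on simulated data. No doublets were removed and no free RNA was corrected. Genes with at least 50 UMI over both groups were compared, and 1.5-fold was counted as past. All 36 genes are named; of each other list, some of up to 3 of the highest and lowest ratios, and 1 such gene is not reported here. The 36 genes, the other lists and the markers were chosen with earlier results of these data known. Gene names were placed with GENCODE vM21 for 35 of 36; promoter windows are RefSeq's. Alternatives changed the scaling, the UMI minimum, the fold, cell filters, thinning and the Cldn4 limits. Those of the UMI minimum and the fold change calls but not ratios, and they are among the alternatives counted for each ratio. Computations ran in Python 3.11.15 with scipy 1.17.1, numpy 2.4.6 and pandas 2.3.3, and plots were drawn with matplotlib 3.10.9.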

Additional observations from a re-analysis of the deposited data

How the results depend on the processing

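No paired analysis was possible because each fraction has 1 library and no comparison comes from a replicated test. Of the counts of genes past 1.5-fold or leading a class, recomputed under the alternatives, 110 stayed within 1.5 times the reported count and 48 did not. Of the ratios of single genes, 13 that had been past 1.5-fold changed side, 345 moved beyond their interval and 1977 were counted as unchanged. Ratios within 1.5-fold that crossed 1 were not among the 13. That of Pgk1 by Cldn4 in CD45-negative AT2 cells, for example, ranged from 0.787 to 2.21. The 1977 include ratios under other UMI minima and the 2-fold limit, settings that leave a ratio unchanged by construction. Percentages in brackets below give the share of all genes tested that was called in the same setting and direction. Over all cells, 6 genes were higher at 2-fold (19.1%), and 8 lower among cells with 0 UMI of leukocyte markers (22.0%). In AT2 cells between fractions, the higher count was 3 with the mean of per-cell CPM (9.47%) and 0 at 2-fold (1.90%). It was 2 without high-mitochondrial and the deepest cells (8.08%), 2 with cells thinned to 2000 UMI (9.35%) and 8 with 0 leukocyte UMI (15.8%). The lower count was 3 with the mean of per-cell CPM (11.6%) and 4 with at least 1 UMI (15.8%). It was 0 with at least 200 UMI (5.29%) and 3 without high-mitochondrial and the deepest cells (9.60%). In endothelial cells the higher count was 4 without abundant genes in the denominator (14.3%), 3 with at least 200 UMI (14.6%), 0 at 2-fold (3.22%) and 3 with 0 leukocyte UMI (17.4%). The lower count there was 2 with at least 200 UMI (6.03%) and 1 with 0 leukocyte UMI (13.4%). That last setting, which most endothelial cells of both libraries failed, left 59 cells in each library and turned Pfkm to 0.719, Hif1a to 1.34 and P4ha2 to 0.516. In immune cells 4 genes were higher at 2-fold (13.6%). In CD45-negative AT2 cells by Cldn4 the higher count was 9 without abundant genes in the denominator (15.7%) and 5 at 2-fold (10.4%). It was 8 with groups set after thinning to 4000 UMI (30.6%) and 9 in cells with 6000 to 12000 UMI (38.9%). The lower count was 4 with the mean of per-cell CPM (7.44%), 1 at 2-fold (3.26%) and 0 with groups set after thinning (6.27%). Pfkm turned to 0.589 with groups set after thinning and Pfkp to 0.961 in cells with 6000 to 12000 UMI. Among cells with at most 3 AT1 markers, 9 against 633, Hk1 turned to 0.943 and Epas1 to 1.10. Over 15 alternatives the ratio of Ndrg1 ranged from 2.77 to 15.2, Eno1 from 2.25 to 3.25, Pkm from 1.92 to 3.47 and Ddit4 from 1.78 to 7.33. In the class deposited as AT1 by Cldn4 the higher count was 3 with at least 200 UMI (21.6%), at 2-fold (13.8%) and thinned (26.8%). It was also 3 with 0 leukocyte UMI (24.8%), in cells with 6000 to 12000 UMI (21.1%) and over cells with 0 or 1 (21.6%). With groups set after thinning it was 2 (13.0%). The lower count was 4 with at least 1 UMI (26.8%) and 1 without high-mitochondrial and the deepest cells (14.3%). It was 0 with at least 200 UMI (9.47%), at 2-fold (5.50%), thinned (11.7%), with groups set after thinning (8.93%) and over cells with 0 or 1 (11.5%). There Slc2a1 turned to 1.13 when thinned, Slc16a1 to 0.944 and Bnip3 to 0.509 with groups set after thinning, and Pfkl to 1.39 and Pfkp to 0.753 over cells with 0 or 1. In CD45-positive AT2 cells by Cldn4 the higher count was 8 with the mean of per-cell CPM (28.3%) and 3 without abundant genes in the denominator (14.2%). It was 1 at 2-fold (7.28%), 9 without high-mitochondrial and the deepest cells (28.6%) and 9 at 4 or more Cldn4 UMI (31.3%). The lower count was 6 without abundant genes (18.4%), 1 with 0 leukocyte UMI (18.5%), 5 with 0 Ptprc UMI (13.6%) and 6 at 4 or more (17.8%). Aldoa turned to 0.733 with at most 3 AT1 markers. The settings with 0 Ptprc UMI, with at most 3 AT1 markers and over cells with 0 or 1, and the whole comparison in CD45-positive AT2 cells, were chosen after seeing the data. The cause of these changes was not tested. Depth limits Adm, Egln3, Slc2a3, Slc16a3 and Pfkm most, which have few UMI in most groups.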
